A study of Rattus norvegicus with 12 samples.

Results

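Bile acids (BA) are made from cholesterol in hepatocytes, secreted into bile, and returned from the intestine to the liver by the portal blood. Returning BA activate the nuclear receptor FXR, which induces the corepressor SHP and represses the synthesis of new BA, and their loss in bile is a known stimulus for the liver to make both BA and cholesterol. After partial hepatectomy (PH) the remaining hepatocytes re-enter the cell cycle while still carrying the metabolic work of the liver. The comparison described here is of liver from rats with a biliary fistula (BF), a catheter that drains bile out of the body, against liver from rats with a sham operation (Control), both collected 24 h after PH. It covers genes other than those of DNA replication. Of 8206 genes compared outside DNA replication and the cell cycle, 134 lay at least 2-fold apart, 65 of them higher in BF (0.792% of the genes compared) and 69 lower (0.841%).

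RNA sequencing was performed on whole liver of male Sprague Dawley rats, 4 to 5 months old, in 3 groups (Control, BF, and BF with sodium taurocholate infused into the duodenum from 12 h before PH, here BA) at 0, 4, 12 and 24 h after PH. Fistula or sham surgery preceded PH by 24 h, and every rat, Controls included, also had a duodenal catheter with a continuous saline infusion. For each group and time the deposited table holds 1 column of RPKM, reads scaled to transcript length and to the size of the library, which the authors averaged over 2 runs (RNA of 1 rat in the first and a pool of 3 rats in the second). The sample titles and the description fields do not match for the fistula groups. Titles call the fistula BF and the infused group BA, whereas the descriptions assign the infusion to the samples titled BF and a fistula with no infusion to those titled BA. Groups are named here by their titles, as the study names them, and the labels alone do not settle which name is correct. At 0 h the column titled BF held 387 RPKM of CYP7A1, an enzyme repressed by returning BA, and the column titled BA held 54.9, near the 60.0 of Control. NR0B2, which returning BA induce, was lower than in Control in both, at 20.2 RPKM in BF and 12.7 in BA. By qPCR, the study reports Cyp7a elevated with the fistula before PH and reversed by the infusion. It describes qPCR and RNA sequencing results as similar. For CYP7A1 the titles, and not the descriptions, match that account. With 1 averaged column per group, no spread between rats is known, no difference below has a replicate check, and no p-value is given. Read depth is unknown, and in whole liver fewer cells of a type and less RNA per cell cannot be told apart.

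Differences are log2 ratios of BF over Control with 1 RPKM added to both values, a scale that understates differences of weakly expressed genes. Genes entered when their 12-column mean was 1 RPKM or more, as it was for 8459 of the 14692 listed. Over all of them, 2.08% lay 2-fold apart in either direction, 0.768% higher in BF and 1.31% lower, and those apart include 42 genes of DNA replication and the cell cycle, all lower in BF, that were left out here. The median gene outside DNA replication had a log2 ratio of -0.11. Columns were also rescaled on the median gene. Each gene's level was set against its own 12-column mean, and each column was divided by the median of these ratios. Only genes detected in all columns entered that median. After this rescaling the median over all genes moved by 0.10 and the split became 76 higher and 46 lower. Of the genes 2-fold apart, 62.3% were then higher in place of 48.5%. Closest to the limit, SQRDL (39.5 RPKM in Control and 80.8 in BF) and KLF13 (8.36 and 3.67) were counted, and RNF125 (11.6 and 24.2) and G1P2 (16.1 and 7.58) were not.

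**Figure D1:**
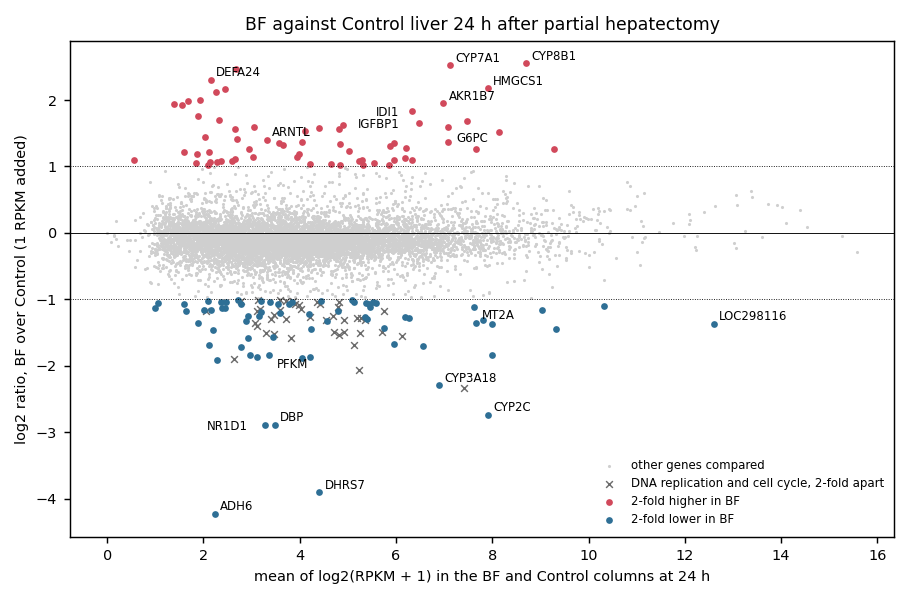
Each point is a gene, with its mean log2(RPKM + 1) in the BF and Control columns at 24 h on the horizontal axis and its log2 ratio on the vertical axis. Red and blue points are the 65 genes 2-fold higher and the 69 genes 2-fold lower in BF, crosses are the 42 genes of DNA replication and the cell cycle that were left out, and dotted lines mark 2-fold. The enzymes of BA synthesis CYP7A1 and CYP8B1 lie highest, and ADH6 and DHRS7 lowest.

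Genes were grouped in 26 lists covering metabolism, transport, stress, growth factors and nuclear receptors. The lists were chosen with earlier results of these data known, so their shares are descriptions and support nothing by themselves. Of 351 metabolic genes compared, 26 were 2-fold higher and 11 lower, or 10.5% in either direction against 1.63% of all genes outside DNA replication. Of these 37 genes, 15 were in the cholesterol list and 4 in the BA synthesis list. Among 269 transport genes 3 were higher and 6 lower (3.35%), among 202 stress genes 4 were higher and 3 lower (3.47%), and among 111 growth factor genes 3 were higher and 5 lower (7.21%). Of 41 nuclear receptors and liver transcription factors, 1 was higher and 4 were lower (12.2%). The other 68 of the 134 genes were in no list, at 0.936% of the 7262 unlisted genes.

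**Figure D2:**
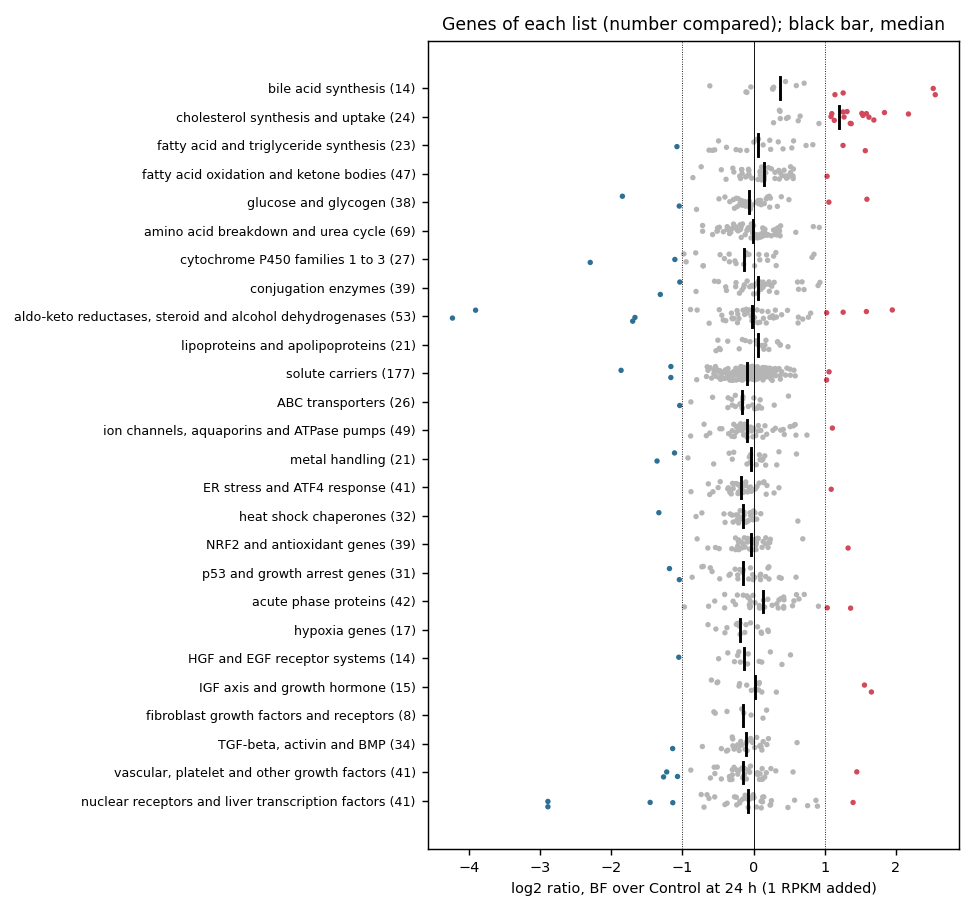
Log2 ratios of BF over Control at 24 h for the genes of each list, with the number of genes compared in brackets, the median as a black bar, and genes past 2-fold (dotted lines) in red or blue. All 24 genes of cholesterol synthesis and uptake lie right of 0 with a median of 1.2, whereas the medians of the other lists lie between -0.19 and 0.37.

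Several enzymes of BA synthesis were far higher in BF than in Control. CYP7A1, the rate-controlling enzyme of the classic pathway, measured 57.3 RPKM in Control, 334 in BF and 68.8 in BA at 24 h, a log2 ratio of BF over Control of 2.52. CYP8B1, which adds the 12-alpha hydroxyl group of cholic acid, was at 171, 1009.8 and 189.7 RPKM in the same order (log2 ratio 2.55). For both genes the BF column stood alone, and the BA column lay close to Control. CYP7B1, of the alternative pathway, measured 9.28 RPKM in Control, 21.7 in BF and 9.69 in BA, and AKR1D1, the steroid 5-beta-reductase, measured 403, 966 and 410.1 RPKM. These 4 were the genes past 2-fold among 14 compared in the list, whose median was 0.37. The others were closer together, with CYP27A1, which opens the alternative pathway, at a log2 ratio of 0.71, the conjugating enzymes SLC27A5 and BAAT at 0.45 and 0.27, and the sterol carrier SCP2 at -0.61.

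The CYP7A1 and CYP8B1 differences were already present at the time of PH. At 0 h CYP7A1 measured 60.0 RPKM in Control, 387 in BF and 54.9 in BA, and at 4 h it was at 4.59, 13.8 and 1.81. At 12 h it measured 8.53 RPKM in Control, 136 in BF and 3.17 in BA, so that BF held the highest value at each of the 4 times. CYP8B1 in BF was at 1576, 918.5 and 767 RPKM at 0, 4 and 12 h, against 136, 164.5 and 135 in Control. CYP8B1 varied little over time in Control, whereas CYP7A1 was lower at 4 and 12 h than at 0 and 24 h in each group.

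Cholesterol synthesis was the most uniform of the lists. All 24 genes compared were higher in BF than in Control, 15 of them at least 2-fold, with a median of 1.2 beside -0.11 for all genes. The largest ratio was that of HMGCS1, the cytosolic HMG-CoA synthase, with 112 RPKM in Control, 508 in BF and 335 in BA (log2 ratio 2.18). IDI1, the isopentenyl diphosphate isomerase, measured 41.8 RPKM in Control, 152 in BF and 88.6 in BA (1.84). SC4MOL, the sterol C4-methyl oxidase, was at 97.9, 318 and 224 RPKM (1.69). ACAT2, the cytosolic thiolase that starts the pathway, was at 16.0, 51.4 and 26.5 RPKM (1.62), and HSD17B7, a sterol ketoreductase, at 11.2, 35.7 and 28.7 RPKM (1.59). In each of these 5 genes the BA column at 24 h lay between Control and BF. At 0 h it lay above BF in each of them, for HMGCS1 at 992 RPKM against 833 in BF and 211 in Control.

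The remaining 10 genes past 2-fold were MVD, FDPS, CYP51, TM7SF2, PMVK, DHCR7, EBP, FDFT1, SQLE and LSS, from a log2 ratio of 1.54 for MVD to 1.09 for LSS. They span the pathway from mevalonate to the last reduction. Smaller ratios were found for the sterol desaturase SC5DL (0.92), the sterol dehydrogenase NSDHL (0.49), the regulator INSIG1 (0.46) and the transcription factor SREBF2 (0.28). At 0 h the list had a median of 0.97 and 11 genes 2-fold higher in BF. Its summed level was then 2330 RPKM in Control, 4626 in BF and 5666 in BA, and at 24 h 1954, 4167 and 2965. In BA against Control at 24 h, a comparison that uses the same Control column, the median was 0.57.

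**Figure D3:**
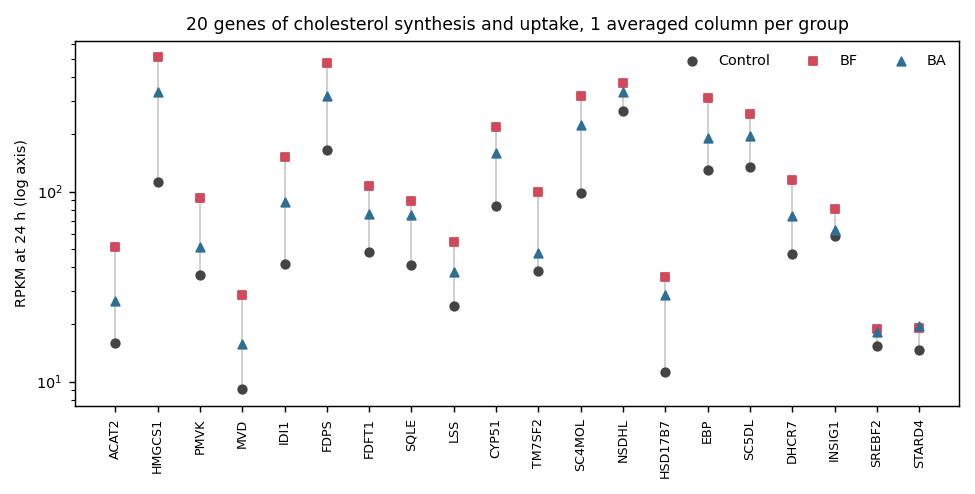
RPKM at 24 h (log axis) of 20 genes of cholesterol synthesis and uptake in the Control (circles), BF (squares) and BA (triangles) columns, ordered from the start of the pathway to regulators. BF lies above Control in each gene plotted, from 508 against 112 RPKM for HMGCS1 to 18.9 against 15.4 RPKM for SREBF2.

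Since the cholesterol genes were higher together, the 250 bases before their start sites were read from RefSeq (assembly GRCr8) and searched on both strands for CCAAT, the box bound by NF-Y, and for TCACNCCAC, a sterol regulatory element. Promoters were found for 16 of the 24 genes, and 13 of them held CCAAT (81.2%), compared with 36.1% of 27457 genes. The latter are all genes with a RefSeq promoter, whether or not they were among the genes compared here. Of 13 promoters of circadian clock genes, a list described below, 7 held CCAAT (53.8%). TCACNCCAC was in none of the 16 and in 1.09% of all genes, which says only that these letters are not in these windows. The promoters of the 5 cholesterol genes with the largest ratios are shown, because they differ in the number and place of the boxes, and in capitals are the CCAAT boxes, read as ATTGG where the box is on the other strand. HMGCS1 lies on the plus strand at chr2:53382054-53382303, IDI1 on the minus strand at chr17:66547525-66547774, SC4MOL (RefSeq Msmo1) on the plus strand at chr16:29746863-29747112, ACAT2 on the plus strand at chr1:50100590-50100839 and HSD17B7 on the minus strand at chr13:84722755-84723004. Boxes began 188 and 133 bases before the start site in HMGCS1, 66 and 35 bases before it in IDI1, 173, 109 and 68 bases before it in SC4MOL, and 176, 86 and 25 bases before it in HSD17B7. ACAT2 held none. A match is a description of the letters and not a measured binding site.
HMGCS1: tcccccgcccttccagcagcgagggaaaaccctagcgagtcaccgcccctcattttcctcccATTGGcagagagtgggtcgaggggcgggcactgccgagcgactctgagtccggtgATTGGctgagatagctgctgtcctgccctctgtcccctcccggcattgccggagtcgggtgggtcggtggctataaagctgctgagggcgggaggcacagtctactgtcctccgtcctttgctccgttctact
IDI1: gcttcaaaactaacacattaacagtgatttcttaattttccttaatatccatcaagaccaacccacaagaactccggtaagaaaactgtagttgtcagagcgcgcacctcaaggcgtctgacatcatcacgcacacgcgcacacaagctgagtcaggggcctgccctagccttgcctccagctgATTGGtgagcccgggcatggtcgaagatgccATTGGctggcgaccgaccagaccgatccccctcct
SC4MOL: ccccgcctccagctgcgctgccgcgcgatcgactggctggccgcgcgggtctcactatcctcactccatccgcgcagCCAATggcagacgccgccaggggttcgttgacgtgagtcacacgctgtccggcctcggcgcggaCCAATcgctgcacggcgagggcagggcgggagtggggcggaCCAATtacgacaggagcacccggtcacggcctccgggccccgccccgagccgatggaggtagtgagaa
ACAT2: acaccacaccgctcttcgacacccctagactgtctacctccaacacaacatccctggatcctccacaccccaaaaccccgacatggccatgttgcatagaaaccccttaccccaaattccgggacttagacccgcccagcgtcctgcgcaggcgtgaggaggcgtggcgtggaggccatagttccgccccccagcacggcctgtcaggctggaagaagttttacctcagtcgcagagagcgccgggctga
HSD17B7: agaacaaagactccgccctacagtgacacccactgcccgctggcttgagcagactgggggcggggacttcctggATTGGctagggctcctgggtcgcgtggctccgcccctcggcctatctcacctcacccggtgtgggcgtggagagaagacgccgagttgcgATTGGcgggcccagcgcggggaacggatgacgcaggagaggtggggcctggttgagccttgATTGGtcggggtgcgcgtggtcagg

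Fatty acid genes were less uniform. Of 23 genes of fatty acid and triglyceride synthesis, ACSS2, which makes acetyl-CoA from acetate, measured 15.3 RPKM in Control, 47.3 in BF and 20.6 in BA (log2 ratio 1.57). The elongase ELOVL6 was at 3.99, 10.9 and 4.85 RPKM (1.26). SCD1, the stearoyl-CoA desaturase, was lower in BF, with 15.9 RPKM in Control, 7.02 in BF and 5.01 in BA (-1.08), and at 0 h it was at 50.4, 4.21 and 24.1. The list's median was 0.07. Of 47 genes of fatty acid oxidation and ketone bodies only EHHADH, the peroxisomal bifunctional enzyme, passed 2-fold, with 16.5 RPKM in Control, 34.8 in BF and 60.1 in BA. CPT1A, which controls mitochondrial entry of fatty acids, had a log2 ratio of -0.11.

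In glucose metabolism 2 of 38 genes were 2-fold higher and 2 lower, and the median was -0.07. G6PC, the last enzyme of glucose release, measured 76.4 RPKM in Control, 232 in BF and 276 in BA (1.59), and at 0 h 84.4, 254 and 114. PPP1R3C, a glycogen-targeting subunit of protein phosphatase 1, was at 31.2, 66.0 and 45.0 RPKM (1.06). Lower in BF were PFKM, the muscle-type phosphofructokinase, with 18.5 RPKM in Control, 4.45 in BF and 1.26 in BA (-1.84), and PFKFB1, the bifunctional regulator of glycolysis, at 49.2, 23.4 and 31.7 RPKM (-1.04). PFKM was above 6 RPKM in all 4 Control columns and below 5 in all 8 columns of the fistula groups. PCK1, which commits carbon to glucose synthesis, was at a log2 ratio of 0.39. None of 69 genes of amino acid breakdown and the urea cycle was 2-fold apart (median -0.01), and CPS1, the first urea cycle enzyme, measured 1664 RPKM in Control and 2107 in BF. The 21 lipoprotein and apolipoprotein genes likewise held none past 2-fold (median 0.06).

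Among enzymes that oxidize or reduce steroids, retinoids and alcohols, large differences went both ways. The lowest ratio of all 8206 genes was that of ADH6, described in the table as class V alcohol dehydrogenase, with 19.4 RPKM in Control, 0.09 in BF and 0.04 in BA (log2 ratio -4.23). ADH6 varied widely in every group, from 0.44 to 19.4 RPKM in Control, 0.01 to 12.6 in BF and 0.04 to 8.83 in BA over the 4 times. DHRS7, a short-chain dehydrogenase, followed with 80.9 RPKM in Control, 4.47 in BF and 110.4 in BA (-3.90). In BF its values were 196 RPKM at 0 h, 80.2 at 4 h, 22.1 at 12 h and 4.47 at 24 h, and in Control 218, 179, 139 and 80.9. DHRS7 was thus close in both groups at 0 h (-0.16), and in both each later column lay below the one before. The log2 ratio of 24 h over 0 h was -5.17 in BF and -1.42 in Control.

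HSD17B2, which inactivates estradiol and testosterone, measured 169.6 RPKM in Control, 51.6 in BF and 109.7 in BA (-1.70), and RDH2, a retinol dehydrogenase, measured 110.2, 34.1 and 107 RPKM (-1.67). AKR1B7, an aldo-keto reductase, was higher in BF, with 63.2 RPKM in Control, 247 in BF and 37.2 in BA (1.95). At 0 h AKR1B7 measured 0.21 RPKM in Control, 25.8 in BF and 0.95 in BA, so that BF held the highest value at each time. With AKR1D1, HSD17B7 and ADH4 (18.9 RPKM in Control and 39.6 in BF), 4 of the 53 genes compared were higher and 4 lower, with a median of -0.02.

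Of 27 cytochrome P450 genes of families 1 to 3, which metabolize drugs and steroids, CYP3A18 measured 263 RPKM in Control, 52.9 in BF and 193 in BA (-2.29) and CYP2C22 measured 1868, 868 and 686 RPKM (-1.10). None was 2-fold higher, and the median was -0.14. Under 2-fold were CYP3A2 at a log2 ratio of 0.28, CYP2A2 at -0.95 and CYP2C13 at -0.98. A gene listed only as CYP2C was counted with the unlisted genes and not among the 27. RefSeq gives CYP2C as an older name of Cyp2c11, a male-specific P450 of rat liver. CYP2C measured 623 RPKM in Control, 92.6 in BF and 143 in BA (-2.74). At 0 h it measured 2997 RPKM in Control, 696 in BF and 926 in BA. Of 39 conjugation enzymes, 2 glutathione transferases were lower in BF, GSTM2 with 353 RPKM in Control, 142 in BF and 143 in BA (-1.31) and GSTM3 with 6.93, 2.87 and 2.12 RPKM (-1.03). Genes of the CYP2C and GSTM families are similar in sequence, and how reads were divided among them is not given in the sources used here.

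Transport genes were mostly close. Among 177 solute carriers the median was -0.09, with 2 genes 2-fold higher and 3 lower. SLC35C2, a nucleotide sugar carrier of the secretory pathway, measured 34.2 RPKM in Control, 8.70 in BF and 10.7 in BA (-1.86), and all 8 columns of the fistula groups lay between 8.57 and 19.8 RPKM against 19.8 to 39.2 in Control. SLC25A29, a mitochondrial carrier of basic amino acids, measured 5.64 RPKM in Control and 1.97 in BF (-1.16), and the glycine transporter SLC6A9 measured 4.99 and 1.68 RPKM (-1.16). SLC7A5, the large neutral amino acid transporter, measured 2.34 RPKM in Control, 5.97 in BF and 6.89 in BA (1.06). SLC13A3, a sodium-coupled dicarboxylate transporter, was at 26.9, 55.9 and 56.0 RPKM (1.03), and at 0 h at 13.2, 63.8 and 41.0. The main BA uptake carrier SLC10A1 measured 198 RPKM in Control, 200.1 in BF and 195 in BA.

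Of 26 ABC transporters the sterol exporter ABCG5 was the one past 2-fold, with 13.8 RPKM in Control, 6.23 in BF and 7.68 in BA (-1.04), and at 0 h 30.7, 6.12 and 4.00. The BA and organic anion pumps ABCB11 and ABCC2 are listed at 0 in all 12 columns, so the table gives no information on them. ABCC4 measured 3.31 RPKM in Control and 3.36 in BF. ABCC3, with a mean under 1 RPKM, was at 0.68 and 1.14. Among 49 channels, aquaporins and pumps the potassium channel KCNJ8 alone was past 2-fold, with 3.31 RPKM in Control and 8.29 in BF.

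The metal-binding metallothioneins were lower in BF at 24 h, in contrast to 0 h. MT2A measured 325 RPKM in Control, 127 in BF and 399 in BA at 24 h (log2 ratio -1.35). At 0 h it measured 38 RPKM in Control, 314 in BF and 238 in BA, a ratio of 3.01 in the other direction. MT2A measured 1271 RPKM in Control, 1171 in BF and 1668 in BA at 4 h, and at 12 h was still at 1663 in Control against 206 in BF. MT1A was at 289, 133 and 232 RPKM at 24 h (-1.11) and at 59.3, 350.1 and 233 at 0 h. The other 19 of 21 genes of metal handling were under 2-fold.

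Stress genes gave few differences. NUPR1, a stress-induced nuclear protein of the ATF4 response, measured 25.7 RPKM in Control, 55.9 in BF and 139.9 in BA (1.09), the only gene of 41 past 2-fold in the ER stress list. The chaperone HSPA5 measured 766 RPKM in Control and 781 in BF, and ATF3 and ASNS had log2 ratios of -0.88 and 0.15. FKBP5, a glucocorticoid-induced cochaperone, was at 36.6, 14 and 21.4 RPKM (-1.33), the only heat shock list member past 2-fold of 32. GPX7, an ER peroxidase, measured 6.94 RPKM in Control, 18.9 in BF and 5.70 in BA (1.33), whereas the NRF2 targets NQO1 and HMOX1 had ratios of -0.53 and 0.17. Of 31 p53 and growth arrest genes, BTG2 measured 41.0 RPKM in Control and 17.5 in BF (-1.18) and CCNG1 measured 64.6 and 30.9 (-1.04). GADD45B was at 5.93 and 3.55 RPKM (-0.61), and none of 17 hypoxia genes was 2-fold apart.

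Of 42 acute phase genes the signaling inhibitor SOCS2 and the lipopolysaccharide co-receptor CD14 were higher in BF. SOCS2, a target of growth hormone, measured 9.27 RPKM in Control, 25.4 in BF and 12.2 in BA at 24 h (1.36), but 38.7, 7.24 and 7.46 at 0 h (-2.27). CD14 was at 11.9, 25.5 and 17.9 RPKM (1.04). The acute phase list had a median of 0.13 at 24 h and of 0.57 at 0 h, when 20 of its genes were 2-fold higher in BF.

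Among growth factors and receptors, the largest ratio was that of IGFBP1, a secreted binding protein of insulin-like growth factors that is induced early after PH. It measured 49.2 RPKM in Control, 157 in BF and 260.2 in BA at 24 h (1.66). At 0 h IGFBP1 was at 7.62, 154 and 63.8 RPKM, and at 4 h at 637, 406 and 1182, so that Control lay above BF at 4 h only. The prolactin receptor PRLR measured 2.68 RPKM in Control, 9.84 in BF and 1.09 in BA (1.56). IGF1 itself measured 259.6 RPKM in Control, 273 in BF and 267 in BA.

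WNT4 measured 1.48 RPKM in Control, 5.78 in BF and 5.31 in BA (1.45). Lower in BF were the thymidine phosphorylase TYMP, also known as a platelet-derived endothelial factor, at 62.0, 25.3 and 27.4 RPKM (-1.26), and the TWEAK receptor TNFRSF12A at 26.7, 10.9 and 13.5 RPKM (-1.22). The TGF-beta family member GDF15 was at 7.13, 2.70 and 2.51 RPKM (-1.14), PDGFA at 3.38, 1.09 and 1.53 RPKM (-1.07) and the urokinase receptor PLAUR at 1.98, 0.44 and 1.40 RPKM (-1.05). All 3 are weakly expressed. The mitogen HGF (12.4 RPKM in Control and 10.1 in BF), its receptor MET (18.3 and 20.0), EGFR (41.5 and 35.4), FGF21 (3.90 and 3.37) and the activin subunit INHBA (2.44 and 2.78) were all under 2-fold. None of 8 fibroblast growth factor genes was past 2-fold.

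Of the nuclear receptors and liver transcription factors, SHP and the clock genes stood out. NR0B2, which encodes SHP, the FXR-induced repressor of CYP7A1, measured 30.2 RPKM in Control, 10.4 in BF and 5.38 in BA at 24 h (-1.45). Its levels at 0 h were 42.3, 20.2 and 12.7 RPKM, and at 12 h it was under 1.3 in all 3 columns. At 24 h the BA column thus held the lowest NR0B2 value while its CYP7A1 was close to Control. NR1H4, which encodes FXR, measured 28.5 RPKM in Control, 53.2 in BF and 42.8 in BA (0.88).

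The circadian clock is a feedback loop in which ARNTL (BMAL1) with CLOCK activates genes such as DBP, the PER genes and NR1D1, and NR1D1 in turn represses ARNTL. NR1D1 measured 25.4 RPKM in Control, 2.56 in BF and 4.96 in BA at 24 h (-2.89), and DBP, a transcription factor of circadian output, was at 29.3, 3.10 and 9.92 RPKM (-2.89). PER3 was at 6.70, 2.51 and 5.59 RPKM (-1.13). ARNTL went the other way, with 5.11 RPKM in Control, 15.1 in BF and 8.17 in BA (1.40). In a list of 14 clock genes made after these values were seen, 1 was 2-fold higher, 4 were lower and the median was -0.08, with CLOCK at 0.01, PER1 at 0.14, PER2 at -0.69, CRY1 at 0.58 and NFIL3 at 0.90. At 0 h the same list held 1 gene 2-fold higher and 5 lower in BF, and NR1D1 measured 70.0 RPKM in Control, 17.8 in BF and 16.0 in BA. The hour of the day at which livers were collected is not given in the sources used here, and its part in the result was not tested.

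**Figure D4:**
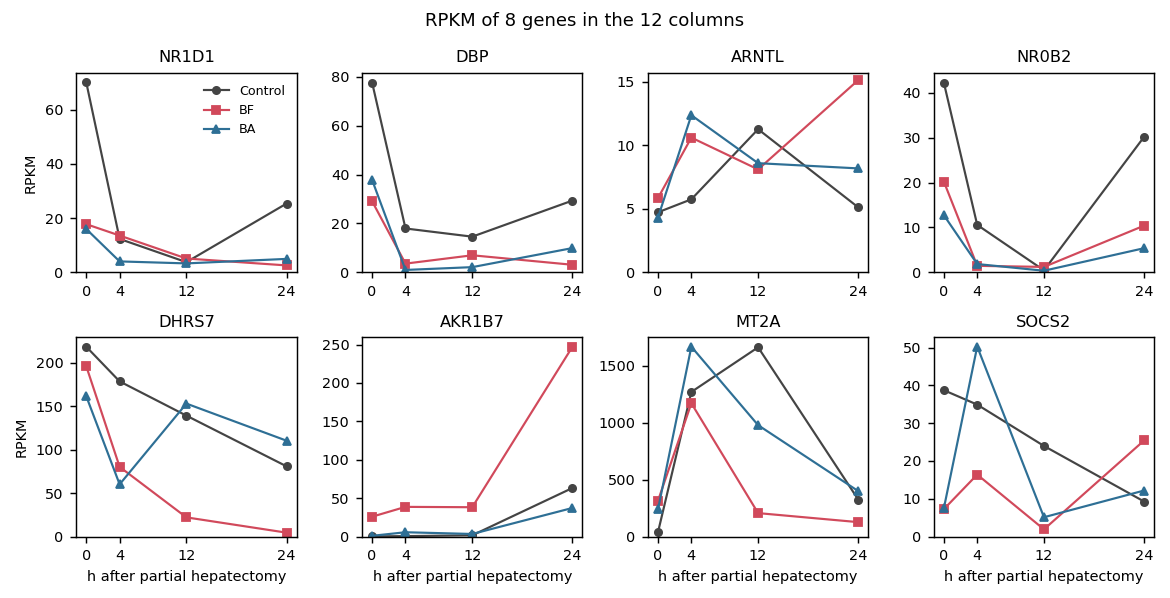
RPKM on linear axes from 0 of 8 genes at 0, 4, 12 and 24 h after PH in Control (black circles), BF (red squares) and BA (blue triangles), 1 averaged column per point. NR1D1, DBP and NR0B2 end highest in Control, ARNTL, AKR1B7 and SOCS2 end highest in BF, DHRS7 ends at 4.47 RPKM in BF, and MT2A at 12 h measured 1663 RPKM in Control against 206 in BF.

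ARNTL is shown with the 250 bases before its start site because it was the 1 of 13 clock genes with a RefSeq promoter that held TAGGTCA, the element bound by ROR and NR1D1, which 2.47% of all genes hold. The element (capitals) began 16 bases before the start site at chr1:176766078-176766327 on the plus strand of GRCr8, where RefSeq calls the gene Bmal1. The E-box CACGTG was in 4 of the 13 clock promoters (30.8%) and in 6.18% of all genes. Both are counts of letters on either strand.
ARNTL: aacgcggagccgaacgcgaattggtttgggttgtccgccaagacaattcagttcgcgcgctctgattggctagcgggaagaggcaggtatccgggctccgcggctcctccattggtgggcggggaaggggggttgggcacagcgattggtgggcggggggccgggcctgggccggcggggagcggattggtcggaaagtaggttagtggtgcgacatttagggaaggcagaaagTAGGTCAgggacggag

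Male rat liver secretes alpha-2u globulins, small urinary pheromone carriers controlled by androgens and by the pattern of growth hormone. In a list made after their values were seen, 3 of 4 such genes compared were 2-fold lower in BF and none higher. LOC298116 measured 10005 RPKM in Control, 3882 in BF and 4802 in BA (-1.37), OBP3 measured 485, 135 and 192 RPKM (-1.84), and LOC298109 measured 409, 157 and 250.3 RPKM (-1.38). Summed over the 6 genes found, Control was at 27902 RPKM at 0 h and 10901 at 24 h, and BF at 12059 and 4174. BF was therefore below Control at both times, and each group was lower at 24 h than at 0 h. These genes are nearly identical, and values of single members are uncertain for that reason.

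**Figure D5:**
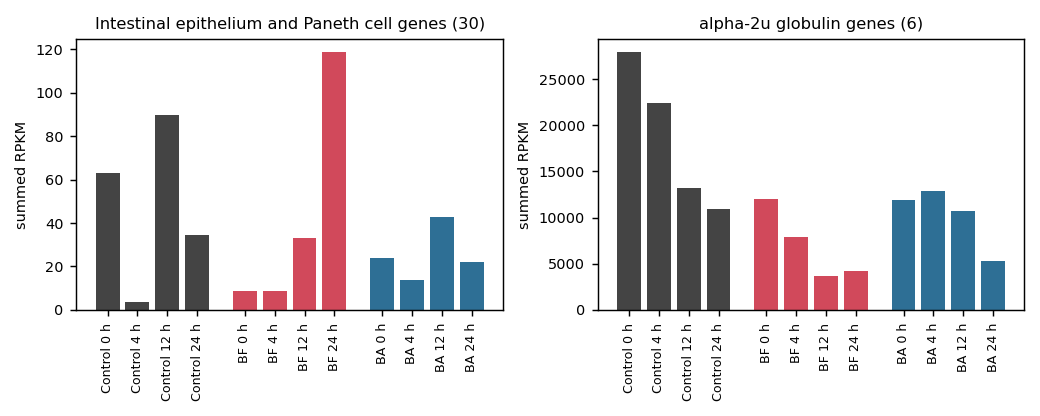
Bars from 0 give the summed RPKM in each of the 12 columns of 30 genes of intestinal epithelium and Paneth cells (left) and of 6 alpha-2u globulin genes (right). The intestinal sum is 119 in BF at 24 h and 34.3 in Control at 24 h, and the alpha-2u globulin sum runs from 10901 to 27902 in the 4 Control columns.

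Among the genes higher in BF, 12 were weakly expressed genes of the intestinal epithelium. They are part of a list of 30 such genes in the table, of which 14 passed the filter on low values. The list was gathered after the values were seen and 3 of the 12 had a mean under 1 RPKM over the 11 other columns, so their number supports nothing by itself. DEFA24, an alpha-defensin of Paneth cells, measured 1.00 RPKM in Control, 8.89 in BF and 0 in BA (2.31). REG3G, an antibacterial lectin, was at 1.59, 10.6 and 1.65 RPKM (2.16), and the chloride channel accessory protein CLCA4 at 1.29, 9.0 and 0.03 RPKM (2.13). GUCA2A, LGALS4, DEFA9 and ZG16 had log2 ratios from 1.70 for ZG16 to 1.98 for GUCA2A, and TFF3, KRT20, FABP6 and REG3B from 1.05 for REG3B to 1.22 for TFF3. At 0 h 11 genes of the list were 2-fold lower in BF. DEFA24 then measured 6.98 RPKM in Control and 0.09 in BF, and at 12 h 8.95 and 0.45.

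The summed level of the intestinal genes was 63.1, 3.60, 89.7 and 34.3 RPKM in Control at 0, 4, 12 and 24 h, 8.91, 8.56, 33.2 and 119 in BF, and 23.8, 13.6, 42.6 and 22.2 in BA. The sum was thus highest in BF at 24 h and in Control at 12 and 0 h, and the part of intestinal tissue in the result was not tested. The unnamed gene LOC691259 measured 0.33 RPKM in Control, 4.08 in BF and 0.04 in BA (1.93), and 2.85 in Control and 0.11 in BF at 0 h. Without the intestinal list, a choice made after seeing the data, 53 genes were 2-fold higher and 69 lower.

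The remaining genes outside the lists with the lowest ratios were mixed in kind. LRTM2, a membrane protein, measured 8.44 RPKM in Control, 1.5 in BF and 4.10 in BA (-1.92), although at 0 h it was at 23.2 and 23.3 RPKM in Control and BF. The tissue-nonspecific alkaline phosphatase ALPL was at 30.8, 7.59 and 15.8 RPKM (-1.89) after values at 4 h of 80.2, 67.1 and 73.2. The class I histocompatibility gene RT1-T24-1 was at 15.5, 3.51 and 9.92 RPKM (-1.87), and it was under 2 RPKM in all columns before 24 h. ZBTB16, a zinc finger repressor, was at 11.4, 2.77 and 4.68 RPKM (-1.72), the matrix proteoglycan osteomodulin OMD at 6.82, 1.43 and 2.13 RPKM (-1.69) and the collagen cross-linking enzyme LOX at 17.8, 5.37 and 3.84 RPKM (-1.56). DERL3, of ER-associated degradation, was at 12.1, 3.38 and 10.9 RPKM (-1.58), but at 0 h measured 8.52 RPKM in Control and 23.3 in BF. The pancreatic-type elastase CELA1 was at 13.8, 3.16 and 9.83 RPKM (-1.83).

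The highest ratio outside the lists was that of RGD1304580 (RefSeq Syne4, a nuclear envelope protein), with 1.72 RPKM in Control, 14.1 in BF and 15.1 in BA (2.47). Other groups were formed after the values were seen. Of 28 interferon response genes IFI47 was 2-fold higher and MX2, USP18 and CXCL9 were lower, with a median of -0.23. Of 8 carboxylesterases CES8 was higher and ES1 (787 RPKM in Control and 350.0 in BF) and LOC100125372 (111 and 45.7) were lower. Of 5 globin genes 3 (LOC689064, LOC287167 and LOC360504) were lower and none higher, and the summed globin level measured 375 RPKM in Control, 195 in BF and 293 in BA. Its part in the other differences was not tested. Further members with a large level in Control were CAR3, the carbonic anhydrase of male liver, at 1054 RPKM against 385 in BF, RGD1307603 (RefSeq Gstp3) at 65.4 against 26.0, AK3L1 at 118.7 against 48.2, and ENPP2, autotaxin, at 88.0 against 32.0. The other genes higher in BF ran from PRG-3 (1.6), RGD1309079 (1.35), the aldehyde oxidase AOX3 (1.23), the acetoacetyl-CoA synthetase AACS (1.22), TOR3A (1.19) and LINGO4 (1.14) to UXT (1.09), MOCOS and TRIM24 (both 1.08) and ACPP (1.02). Those lower in BF ran from CCDC68 (-1.46), PPL (-1.35), the survival factor BCL2L1 (-1.19) and CCDC92 (-1.17) to the clock list member RGD1566380 (-1.12), RGD1308059 (-1.11), WFDC2 (-1.08), MLC1 (-1.07), KLF16 and FAM134B (both -1.06), ANKH (-1.05), SLPIL2 (-1.04), and SLPI, MMP15 and RGD1561849 (each -1.03).

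Markers of the cell types of liver lay within 2-fold at 24 h. None of 13 hepatocyte, 10 cholangiocyte, 16 Kupffer cell and macrophage, 3 neutrophil, 10 stellate cell, 5 endothelial or 4 lymphocyte markers compared was 2-fold apart, and the medians of these lists lay between 0.04 and 0.24. Albumin measured 53967 RPKM in Control and 44249 in BF, and HNF4A was at 169 in both. Of 20 pancreatic acinar genes found, 4 passed the filter, CELA1 lower and CPB1 higher (0 RPKM in Control and 1.15 in BF). CTRB1, PRSS1 and CPB1 passed it only through BF at 12 h (84.7, 16.55 and 11.9 RPKM), so the CPB1 call supports nothing by itself. Summed over the 20 genes, the level at 24 h was 15.9 RPKM in Control and 5.99 in BF, of which CELA1 made up 13.8 and 3.16. In BF at 12 h the sum was 182 RPKM, with CELA1 at 6.03.

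Values at 0 h entered the filter on low values but not the 24 h ratio that chose the genes, and they show which differences preceded PH in these columns. Of the 134 genes, 58 (43.3%) were also 2-fold apart at 0 h in the same direction, where 3.97% of genes outside DNA replication, and 3.89% of all genes compared (1.73% higher and 2.16% lower), lay 2-fold apart in either direction. Among the 65 genes higher at 24 h 22 were 2-fold higher at 0 h, compared with 1.75% of all, and among the 69 lower genes 36 were 2-fold lower, compared with 2.22%. A 2-fold difference in the other direction at 0 h was found for 16 genes (11.9%), 13 of them higher at 24 h. Among them were MT2A, MT1A, DERL3 and SOCS2 and the intestinal or similar genes FABP6, KRT20, TFF3, ZG16, DEFA9, LGALS4, LOC691259, GUCA2A, CLCA4, REG3G and DEFA24. The other 60 genes were under 2-fold apart at 0 h.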

How the data were processed

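RNA sequencing libraries were made by the authors from poly(A)+ RNA of whole liver. Reads were converted by the authors to RPKM, written to 2 decimals and deposited as 1 table, each column the mean of 2 runs. The submitters' processing notes name CASAVA, Bowtie 0.12.2 and the builds rn4 and mm8, without their roles. Division by library total lets a few abundant genes lower the rest: columns summed to 727435 to 982826 RPKM, with 29.4% to 53.2% in the 10 most abundant genes. The highest sum and share were both those of BA at 4 h. At 24 h Control summed to 732811 RPKM with 29.4% in those genes, and BF to 740057 RPKM with 31.0%. Of 14692 genes, 1 had no value. Log2 ratios with 1 RPKM added, counts past 2-fold and list medians were computed with Python 3.11.15, numpy 2.4.6 and pandas 2.3.3, plots with matplotlib 3.10.9, and checked on simulated data. No test was possible with 1 column per group.

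The genes compared and all lists were chosen with earlier results of these data known, and lists of clock, interferon, intestinal, alpha-2u globulin, carboxylesterase and globin genes after these values were seen. Genes of the study's DNA replication set and a cell cycle list, 253 of those compared, were left out. Genes were named if in a list of 30 single genes (29 found), among the 5 largest ratios past 2-fold in each list, or among the 10 highest or 10 lowest outside the lists. Some genes so selected are not reported here. Others were named after their values were seen. Older symbols were traced with RefSeq (GRCr8), used for names and promoters alone. Alternatives were other pseudocounts, filters and scalings, and exchanged BF and BA names.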

Additional observations from a re-analysis of the deposited data

Results flagged for a closer look

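For 10 of the named genes the change from 0 h to 24 h was at least 2-fold in both Control and BF, but in opposite directions. Each group has 1 averaged column per time, so the difference was not tested. It is given as the log2 ratio of 24 h over 0 h in BF minus that in Control. This difference contains the 24 h ratio of BF over Control that chose these genes, so its size is no separate result. For MT2A it was -4.37, with 3.06 in Control and -1.30 in BF. For MT1A it was -3.65, with 2.26 and -1.39. SOCS2 had a difference of 3.63, from -1.95 in Control and 1.68 in BF. The other 7 genes were weakly expressed, and 6 of them belong to the intestinal list. Their differences were 5.18 for DEFA24, 4.53 for REG3G, 4.38 for ZG16, 4.16 for GUCA2A, 4.10 for LGALS4, 3.99 for DEFA9 and 3.73 for LOC691259.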

How the results depend on the processing

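No paired analysis was possible because each group has 1 averaged column at 24 h, which also left no replicate to leave out. With 5 RPKM added in place of 1, the main counts were smaller, by construction: 32 genes were 2-fold higher and 35 lower, with 3 transport, 4 stress, 2 growth factor and 3 nuclear receptor genes past 2-fold. With 0.1 RPKM added 79 were higher and 95 lower. A mean of at least 5 RPKM left 41 higher, 56 lower and 3 growth factor genes, and no filter gave 74 and 72. Rescaling on the median gene gave 76 and 46, and on the sum without the 10 most abundant genes 66 and 66. Under the other pseudocounts and scalings, none of the 74 named genes past 2-fold changed direction, an outcome that was fixed in advance. An added constant cannot reverse a ratio, and the rescalings moved the median log2 ratio by only 0.10 and 0.016. Of the 21 named genes under 2-fold, CPT1A alone changed direction, from -0.11 to 0.0012 after rescaling on the median gene.

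With the BF and BA names exchanged, as the descriptions give them, 61 genes were 2-fold higher and 103 lower, 48 of the 134 among them, with 12 stress and 3 nuclear receptor genes past 2-fold. The exchanged comparison uses the same Control column that helped choose the genes, so shared genes or directions support nothing by themselves. Of the 74 named genes past 2-fold, 29 stayed past it in the same direction, 32 fell under it in the same direction and 13 changed direction. Of the 21 under 2-fold, 10 changed direction and 4 came past 2-fold, among them FGF21 at 1.57. The 13 had log2 ratios of 0.44 for DHRS7, 0.30 for MT2A, 0.69 for SLC6A9, -0.75 for AKR1B7, -0.24 for GPX7, -0.82 for PRLR, -1.15 for CLCA4, -1.0 for DEFA24, -1.01 for DEFA9, -0.58 for GUCA2A, -0.30 for LGALS4, -0.35 for LOC691259 and -1.48 for ZG16. The cause was not tested. Unknown read depth limits what can be said of genes near 1 RPKM.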
